A study of Homo sapiens with 8 samples.

Results

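The promoters described here belong to the mitogen-activated protein (MAP) kinase cascade and to the dual-specificity phosphatases (DUSPs). They were taken from a list of PML::RARA Cut&Run peaks as the peaks whose gene symbol begins with MAPK, MAP2K, MAP3K, MAP4K or DUSP and a digit, with MAPKAPK2, MAPKAPK3 and MAPKAPK5 included. This gave 41 peaks with 37 symbols, of 7169 peaks with a gene symbol and 15412 peaks in all. Of the 37 symbols, 34 are annotated kinases or phosphatases. The other 3 are the antisense genes MAP3K14-AS1 and MAPKAPK5-AS1 and the gene MAP3K7CL.

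The cells were of the line U937-PR9, derived from human monocytic cells, in which zinc turns on a transgene for PML::RARA. PML::RARA is the fusion of the retinoic acid receptor alpha that drives acute promyelocytic leukaemia. Induced cells received 100 μM ZnSO4 for 5 h and uninduced cells received sterile water for the same time. Each condition was profiled with an anti-PML::RARA and an anti-RARA antibody in 2 replicates, that is 8 libraries in 4 groups. In Cut&Run, an antibody brings a nuclease to its target in isolated nuclei and the released DNA is sequenced. The 1 list used here is that for anti-PML::RARA after induction, while the anti-RARA peaks, the peaks of uninduced cells and expression were not analysed here. Because every induced cell also received zinc, the effects of zinc and of the fusion protein cannot be told apart in this list. Peaks are described below by height over width, so that "a height of 29 over 1282 bp" is a largest signal of 29 in a peak 1282 bp wide. Each peak has 1 position, 1 width and 2 signal values, taken to be its total signal and its largest signal, called its height here. No value per replicate is given, so no difference below could be set against the spread between replicates, and depth is unknown. Comparisons of groups of peaks are therefore descriptions without a test. An interval in parentheses after a share is a 95% interval by the method of Wilson, and reflects counting error of peaks or genes alone.

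A MAP kinase cascade passes a signal through kinases that phosphorylate each other in turn. MAP4Ks act on MAP3Ks, MAP3Ks on MAP2Ks, MAP2Ks on the MAP kinases ERK, JNK and p38, and these on target kinases such as the MAPKAPKs and on transcription factors. The typical MAP kinase phosphatases, a subset of the DUSPs, remove the activating phosphates from MAP kinases. Several of them are made in response to the cascade itself, and in myeloid cells the pathway carries growth factor, cytokine and stress signals.

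The highest peak of each kinase tier and of the typical phosphatases is shown first as sequence, to let a reader see which letters lie under the signal. Each stretch is the plus strand of GRCh37 (hg19) within 100 bp of the apex, the midpoint of the interval of largest signal. Only the longest stretch outside annotated untranslated regions is shown. At MAP4K1 a second stretch of 30 bp was added, of which 21 bp are untranslated region. Capitals mark matches, on either strand, to the motifs AGGTCA (the half-site of nuclear receptors), GGAAGT (ETS factors) with its longer forms CCGGAAGT and GAGGAAGT (the latter as bound by PU.1), GGGCGG (SP and KLF factors), TGANTCA (AP-1), TGACGTCA (CREB and ATF factors), CACGTG (E-box) and GCGCATGC (NRF1). GGAAGT overlaps its longer forms. Direct repeats of AGGTCA half-sites (also with G as the first letter, T as the third, or both) with spacers of 0 to 8 bp were searched too.
MAP4K1, chr19:39109622-39109721: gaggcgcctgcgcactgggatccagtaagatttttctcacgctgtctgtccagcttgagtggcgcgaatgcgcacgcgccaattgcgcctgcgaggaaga
MAP4K1, chr19:39109713-39109742: cgaggaagaagtCACGTGgcagccggaaag
MAP3K11, chr11:65382977-65383177: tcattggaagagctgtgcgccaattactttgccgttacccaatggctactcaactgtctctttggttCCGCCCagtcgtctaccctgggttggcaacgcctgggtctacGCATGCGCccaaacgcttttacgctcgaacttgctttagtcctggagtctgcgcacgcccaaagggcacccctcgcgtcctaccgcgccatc
MAP2K3, chr17:21191404-21191488: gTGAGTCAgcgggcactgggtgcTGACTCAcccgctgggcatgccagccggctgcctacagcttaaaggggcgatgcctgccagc
MAPK14, chr6:35995212-35995412: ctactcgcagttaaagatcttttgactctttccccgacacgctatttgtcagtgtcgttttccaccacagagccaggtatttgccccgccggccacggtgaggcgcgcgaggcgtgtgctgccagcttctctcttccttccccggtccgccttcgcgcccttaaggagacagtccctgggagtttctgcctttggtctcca
MAPKAPK3, chr3:50654211-50654411: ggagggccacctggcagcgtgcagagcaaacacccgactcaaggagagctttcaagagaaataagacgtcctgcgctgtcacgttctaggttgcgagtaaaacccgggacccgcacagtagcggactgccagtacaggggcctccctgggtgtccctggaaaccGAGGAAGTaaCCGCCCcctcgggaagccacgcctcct
DUSP6, chr12:89746330-89746530: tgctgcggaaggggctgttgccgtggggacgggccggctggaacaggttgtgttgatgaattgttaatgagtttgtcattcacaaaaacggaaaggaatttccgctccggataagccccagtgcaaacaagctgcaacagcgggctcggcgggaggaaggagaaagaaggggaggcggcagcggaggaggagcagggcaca
The stretches differed in what they held. MAP2K3 had 2 AP-1 matches, MAP3K11 had 1 GGGCGG and 1 GCGCATGC match, and MAPKAPK3 had 1 GAGGAAGT and 1 GGGCGG match. The stretches shown of MAPK14 and DUSP6 matched none of these motifs, which says only that these letters were not in them.

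GENCODE lists 70 protein-coding MAP kinase cascade and DUSP genes of these names, and 34 of them, 48.6% (37.2 to 60.0%), had a promoter peak. Of all protein-coding genes, 30.0% had one. The share varied between the tiers, but the tiers hold few genes and their 95% intervals all overlapped. It was 4 of 5 for the MAP4Ks, 9 of 18 for the MAP3Ks, 5 of 7 for the MAP2Ks, 3 of 13 for the MAP kinases, 2 of 3 for the MAPKAPKs, 6 of 10 for the typical phosphatases and 5 of 14 for the other DUSPs. With an apex within 1 kb of an own start site as the criterion, in place of the authors' label, 38 of the 70 genes (54.3%) counted, against 39.3% of all protein-coding genes. An own start site lay inside a peak in 38 genes, 54.3% (42.7 to 65.4%), against 38.3%.

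**Figure D1:**
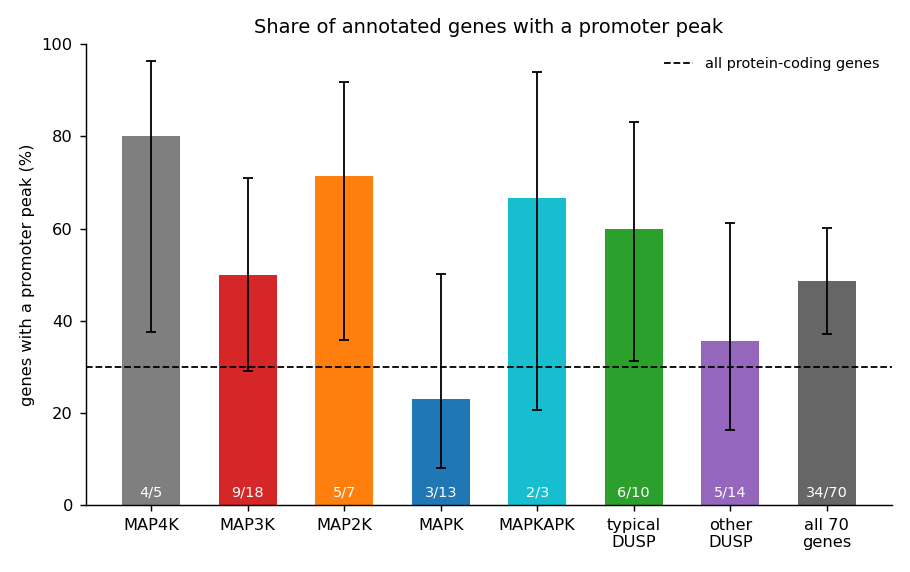
Share of the annotated genes of each tier that had a promoter peak, in percent, with the number of genes written in each bar. Error bars are 95% intervals (Wilson) and the dashed line is the share of all protein-coding genes, 30.0%. The interval of all 70 genes lies above the line, and the MAP kinases, with 3 of 13 genes, are the only tier below it.

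Over all protein-coding genes, a promoter peak was more frequent where the start site was CpG-rich. A start was counted as CpG-rich when the 200 bp to each side of the canonical start site held at least 55% GC and an observed over expected CpG of at least 0.65, limits chosen after seeing the data. Of the 70 genes, 57 had a CpG-rich start, and 30 of these, 52.6% (39.9 to 65.0%), had a promoter peak. Among all protein-coding genes with a CpG-rich start the share was 40.7%, which lies inside that interval. Of the 13 genes with another start, 4 had a promoter peak, 30.8% (12.7 to 57.6%), among them DUSP6 and MAP3K11. Of all protein-coding genes of this kind 12.3% had one, which lies just below that interval. The 36 genes without a promoter peak had a median of 76.6% GC at the start site, against 73.4% in the 34 genes with one. Their median observed over expected CpG was lower, at 0.856 against 0.910, and 75% of them had a CpG-rich start, against 88.2%. The part of base composition or of expression in the share was not tested.

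Over the 41 peaks, height had a median of 28, with quartiles of 24 and 41 and a range of 16 to 72. The 7128 other promoter peaks had a median of 26, with quartiles of 20 and 35. The difference of 2 in the median came with an interval of -1 to 12 (order statistics of the 41 peaks), which includes 0. Width stood further from the other promoter peaks, with a median of 1699 bp against 1106 bp, a difference of 593 bp (176 to 746 bp). The upper quartile of height over all promoter peaks began at 35, and 15 of the 41 peaks, 36.6% (23.6 to 51.9%), reached it, against 25.5% of all promoter peaks. The upper quartile of width began at 1539 bp, and 21 of the 41 peaks, 51.2% (36.5 to 65.7%), reached it, against 25.0%. The second MAP2K3 peak, at 1538 bp, fell just short. Height rose with width over the 41 peaks with a Spearman rho of 0.54, and with 0.45 over the 7128 others. Both measures come from the same reads, so these values are given without a test.

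**Figure D2:**
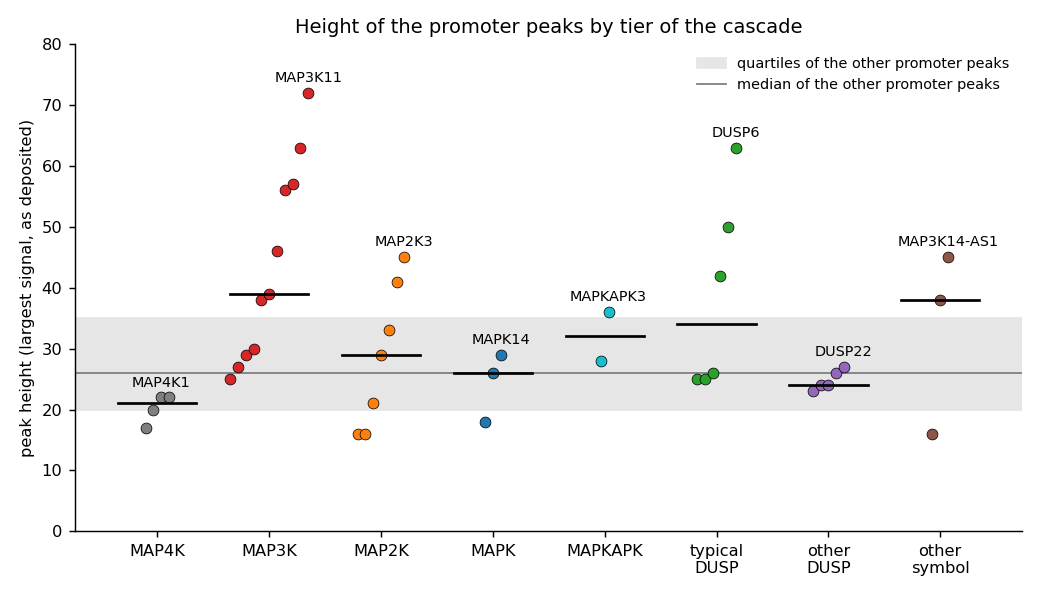
Height of each of the 41 promoter peaks by tier, in units of the deposited signal, with a black bar at the median of each tier. The grey band and line are the quartiles (20 and 35) and the median (26) of the other promoter peaks, and the highest peak of each tier is named. The MAP4K peaks, from 17 to 22, lie below the lowest MAP3K peak at 25.

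The MAP4Ks receive signals from receptors and small GTPases and feed the JNK branch. Their 4 peaks were the lowest tier, at a height of 22 for MAP4K1 (a kinase of blood cells), 20 for MAP4K3, 17 for MAP4K4 and 22 for MAP4K5, with widths of 1867, 1081, 866 and 1481 bp. All 4 lay below the median of the other promoter peaks. The apex of the MAP4K1 peak lay 200 bp upstream of a MAP4K1 start site but 0 bp from a start site of EIF3K, a subunit of a translation initiation factor. At MAP4K5 the apex was 111 bp from an own start site and 102 bp from one of ATL1. MAP4K2 had no promoter peak, and the nearest apex, 7405 bp away, was labelled MEN1.

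The MAP3Ks had the highest median of the tiers. Their 11 peaks over 9 genes had a median height of 39 and ranged from 25 to 72, and 7 of them, 63.6% (35.4 to 84.8%), were in the upper quartile of height. The attention to this tier was chosen after its values were seen. MAP3K11 (the mixed lineage kinase MLK3) had 3 promoter peaks, with heights of 72, 29 and 27 and widths of 1793, 1455 and 1924 bp. They lay from 65378217 to 65384162 on chromosome 11 with gaps of 569 and 205 bp, so that they nearly covered a stretch of 5946 bp. The highest peak of all 41, of height 72, was higher than 99.8% of the other promoter peaks. Its apex was 224 bp upstream of a MAP3K11 start site and 170 bp from a start site of PCNX3, which lies next to it.

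MAP3K3 (MEKK3) had a peak of height 63 and of only 1300 bp, with the apex 190 bp upstream of a start site. MAP3K14 (NIK, the kinase of the non-canonical NF-κB pathway) followed with a height of 57 over 1801 bp. At MAP3K12 (DLK) the peak had a height of 56 over 3214 bp. Its apex lay 858 bp upstream of a MAP3K12 start site and 0 bp from a start site of TARBP2, a partner of Dicer. MAP3K8 (TPL2, which activates the ERK branch downstream of Toll-like receptors) had a height of 46 over 1997 bp.

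The stress-activated kinases MAP3K5 (ASK1) and MAP3K6 (ASK2) had heights of 39 and 38 and widths of 2373 and 2864 bp. MAP3K21 and MAP3K9, both mixed lineage kinases, were at 30 and 25 with narrow peaks of 769 and 552 bp. Among the mixed lineage kinase genes, MAP3K9, MAP3K11, MAP3K12 and MAP3K21 had a promoter peak, and MAP3K10, MAP3K13 and MAP3K20 had none. Of the 3 ASK genes 2 had one. The 9 MAP3K genes without one included MAP3K1, MAP3K4 and MAP3K7 (TAK1), whose nearest apexes were 23564, 77798 and 161309 bp away.

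The highest MAP3K11 peak and the MAP3K12 peak sat beside a start site of another coding gene. Leaving out the peaks with such a start site within 1 kb of the apex kept 9 of the 11 MAP3K peaks, with a median height of 38 and a range of 25 to 63. Of these 9, 5 were in the upper quartile. Without its highest peak alone, the MAP3K tier had a median of 38.5. The 30 peaks outside the MAP3K tier had a median height of 26, equal to that of the other promoter peaks, and 8 of them, 26.7% (14.2 to 44.4%), reached the upper quartile of height. In width these 30 peaks remained above the other promoter peaks, with a median of 1509.5 bp and 14 of 30 (46.7%) in the upper quartile.

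Within 10 classes of equal numbers of promoter peaks by width, the 41 peaks were on average 1.57 higher than the other promoter peaks of their class, and higher in 5 of the 10 classes. The MAP3K peaks were 11.2 higher, in 5 of the 6 classes they fell in, while for the remaining 30 peaks the average difference in height was -1.96. The upper quartile of height within its own width class held 11 of the 41 peaks (26.8%), against 26.3% of the other promoter peaks. By tier, it held 6 of the 11 MAP3K peaks (54.5%) and 5 of the other 30 (16.7%).

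**Figure D3:**
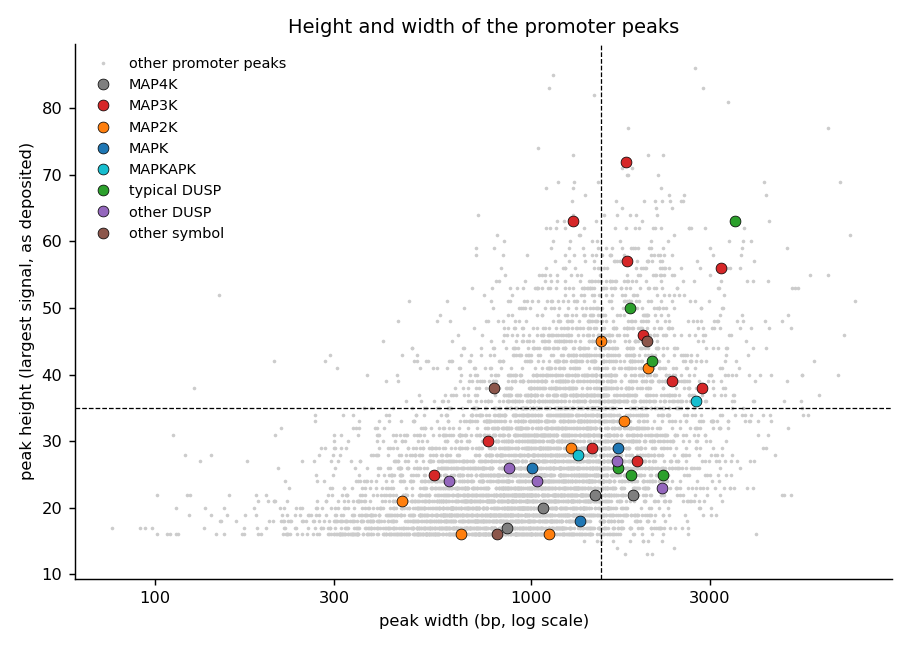
Height (deposited signal) against width (bp, log scale) of the 41 promoter peaks, coloured by tier, over the 7128 other promoter peaks in grey. Dashed lines mark the upper quartiles, 35 in height and 1539 bp in width. DUSP6, MAP3K12 and MAP3K6 are at the wide end, and MAP3K3 is high for its width of 1300 bp.

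MAP2Ks are the kinases that phosphorylate MAP kinases on threonine and tyrosine. MAP2K1 and MAP2K2, which act on ERK, both had promoter peaks. The MAP2K1 peak had a height of 29 over 1282 bp and peaked 35 bp downstream of a start site. TIPIN, a factor of the replication fork, has a start site within 1 kb. MAP2K2 had 2 low and narrow promoter peaks, of height 16 and 651 bp at the canonical start and of height 21 and 454 bp at an alternative start in intron 3, with a gap of 18936 bp between them.

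MAP2K3, which acts on p38, had the 2 highest MAP2K peaks, with heights of 41 and 45 and widths of 2052 and 1538 bp. The first lay at the canonical start and the second 3365 bp into the gene, 30 bp from an alternative start site in intron 1, and the gap between them was 1247 bp. The 2 AP-1 matches shown above are under the second peak, and the first held 1 further AP-1 match within 200 bp of its apex. MAP2K7, which acts on JNK, had a height of 33 over 1774 bp.

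MAP2K5, which acts on ERK5, was among the lowest with a height of 16 over 1116 bp, and its apex was 36 bp from the start of the divergent transcript MAP2K5-DT. MAP2K4 and MAP2K6, the second kinases for JNK and for p38, had no promoter peak. Their nearest apexes lay 893888 and 902310 bp away, the largest distances among the 70 genes.

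Of the 13 MAP kinase genes 3 had a promoter peak, 23.1% (8.18 to 50.3%), an interval that holds the 30.0% of all protein-coding genes, and 5 (38.5%) had an apex within 1 kb of an own start site, against 39.3%. MAPK6 (ERK3) had a height of 26 over 1011 bp and MAPK14 (p38α) a height of 29 over 1711 bp. None of the 3 peaks of this tier reached the upper quartile of height. At MAPK3 (ERK1) the gene and its 10 kb flanks were free of peaks, and the nearest apex, labelled YPEL3, was 19114 bp away.

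None of the 3 JNK genes, MAPK8, MAPK9 and MAPK10, had a promoter peak, and their nearest apexes were 40519, 107594 and 340222 bp away. Of the 4 p38 genes MAPK14 alone had the label. MAPK13 had an unlabelled peak of height 17 with the apex 711 bp upstream of a start site. MAPK7 (ERK5) counted as unlabelled, but a peak of height 35 and 1557 bp with the label B9D1 had its apex 67 bp upstream of a MAPK7 start site.

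The MAPKAPKs are kinases that MAP kinases switch on. MAPKAPK2 and MAPKAPK3, targets of p38, had heights of 28 and 36 and widths of 1334 and 2759 bp. The apex nearest to a MAPKAPK3 start site, 178 bp away, was that of another peak, of height 53 over 2459 bp, which has the label CISH and covers the 5′ end of the gene. At MAPKAPK2 the apex was 1023 bp downstream of the nearest own start site, in intron 1. MAPKAPK5 had no label of its own. The peak with the label MAPKAPK5-AS1, of height 16 and 815 bp, had its apex 87 bp from a MAPKAPK5 start site and 117 bp from that of the antisense gene.

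Of the 10 typical MAP kinase phosphatases, 6 had a promoter peak, and all 6 of these peaks were in the upper quartile of width. DUSP6, which removes phosphate from ERK in the cytoplasm, had the widest peak of the 41 with 3503 bp, a height of 63 and a total signal of 55426. That total exceeded those of 99.4% of the other promoter peaks. DUSP7, also an ERK phosphatase, had a height of 50 over 1835 bp and peaked 749 bp before the start site. DUSP10, which prefers JNK and p38, had a height of 42 over 2109 bp.

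The remaining 3 of these phosphatases were wide but of middle height. DUSP4, a nuclear phosphatase, had a height of 26 over 1706 bp. DUSP2 and DUSP5, both nuclear, had heights of 25 and 25 and widths of 2253 and 1852 bp. DUSP1, DUSP8, DUSP9 and DUSP16 had no promoter peak. At DUSP1, the phosphatase of the early stress response, an unlabelled peak of height 23 and 2446 bp, from 172197368 to 172199813 on chromosome 5, covered the start site but had its apex 1344 bp upstream of it. For DUSP8, DUSP9 and DUSP16 the nearest apexes were 80818, 43141 and 143144 bp away.

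The other DUSPs act on MAP kinases less strictly, or on other substrates such as RNA. Their 5 peaks lay between 23 and 27 in height, with 27 for DUSP22, 26 for DUSP12, 24 for DUSP11, 24 for DUSP23 and 23 for DUSP3. Widths ran from 606 bp at DUSP11 to 2234 bp at DUSP3. None reached the upper quartile of height and 2, DUSP3 and DUSP22, reached that of width. At DUSP3 the apex was 974 bp upstream of the own start site and 484 bp from that of CFAP97D1. DUSP28 had no label, but a peak of height 35 with the label ANKMY1 had its apex 323 bp from a DUSP28 start site.

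The 3 other symbols gave a height of 45 over 2046 bp for MAP3K14-AS1, 38 and 799 bp for MAP3K7CL, and 16 and 815 bp for MAPKAPK5-AS1. The MAP3K7CL apex was 1194 bp upstream of the nearest annotated start of that gene, the farthest of the 41. The MAP3K14-AS1 apex was 157 bp from the own start site and 84 bp from that of the pseudogene EFCAB15P.

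The median distance from the apex to a start site of the labelled gene was 128 bp, against 102 bp for the other promoter peaks with an annotated symbol, and 39 of 41 (95.1%) were within 1 kb, against 92.3%. Within 100 bp of a start site were 15 of 41 (36.6%), against 49.6% of the others, while within 250 bp were 32 of 41 (78.0%), against 76.1%. Upstream of the start site were 35 of the 41 apexes (85.4%), against 75.4% of the others. For 9 peaks the nearest start site was that of another gene, as given above for MAP4K1, MAP4K5, MAP3K12, MAP2K5, DUSP3, both antisense genes and the highest MAP3K11 peak, and at MAP3K9 it was that of its divergent transcript, 6 bp away. Start sites of another coding gene within 1 kb were found at 7 peaks, so that these peaks cannot be assigned to 1 gene by distance. The counts of 9 and 7 were not made for the other promoter peaks, so neither is read as particular to these genes.

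**Figure D4:**
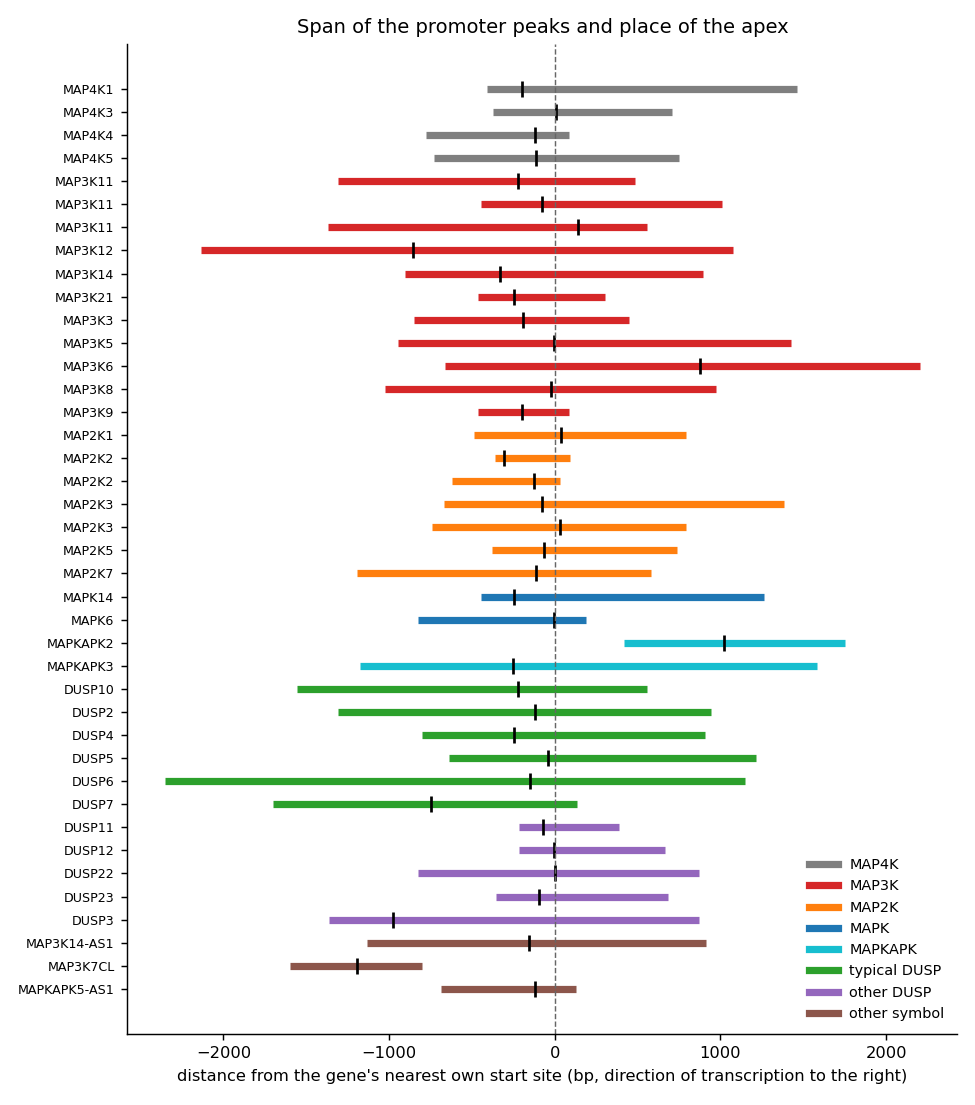
Span of the promoter peaks, apart from 1 that is not shown, around the nearest start site of the own gene, in bp with transcription to the right, coloured by tier, with a black tick at the apex. Most ticks sit just left of 0, and the apexes of MAPKAPK2, MAP3K6, MAP3K12, DUSP7, DUSP3 and MAP3K7CL lie farthest from it, between 749 and 1194 bp.

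Peaks without a promoter label added to the signal at many of these genes. Among the 34 labelled kinases and phosphatases, 19, or 55.9% (39.5 to 71.1%), had at least 1 such peak over the gene or within 10 kb, 34 peaks in all, against 32.2% of all labelled protein-coding genes. The median gene length was 35.8 kb, against 32.0 kb in the other labelled genes. MAP2K5, MAP3K5 and MAPKAPK3, with lengths of 264415, 236052 and 37772 bp, had 4 such peaks each. The part of gene length in this share was not tested. In 6 of the 34 genes, 17.6% (8.35 to 33.5%), the highest unlabelled peak was higher than the promoter peak, against 14.9%.

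The widest gap in height was at MAP2K5, where intron 21 held 3 unlabelled peaks of height 24, 51 and 44, more than 237 kb downstream of the start, while the promoter peak had a height of 16. MAP3K5 had 2 peaks in intron 1, of height 49 and 51 at 8.41 and 7.03 kb from the start, against 39 at the promoter. In intron 2 of MAPKAPK3 a peak of height 46 lay 3.5 kb from the canonical start, against 36 at the promoter peak with its label and 53 at the CISH peak. MAP2K2 had 31 in intron 3 against 21, DUSP3 had 33 in intron 2 against 23, and MAP3K9 had 27 in intron 2 against 25. DUSP6 had a second peak of height 44 and 1412 bp just downstream of the gene, 6.04 kb from the start site. DUSP5 had 2 intronic peaks of height 18 and 23. Whether any of these peaks acts on the gene it lies over was not tested.

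**Figure D5:**
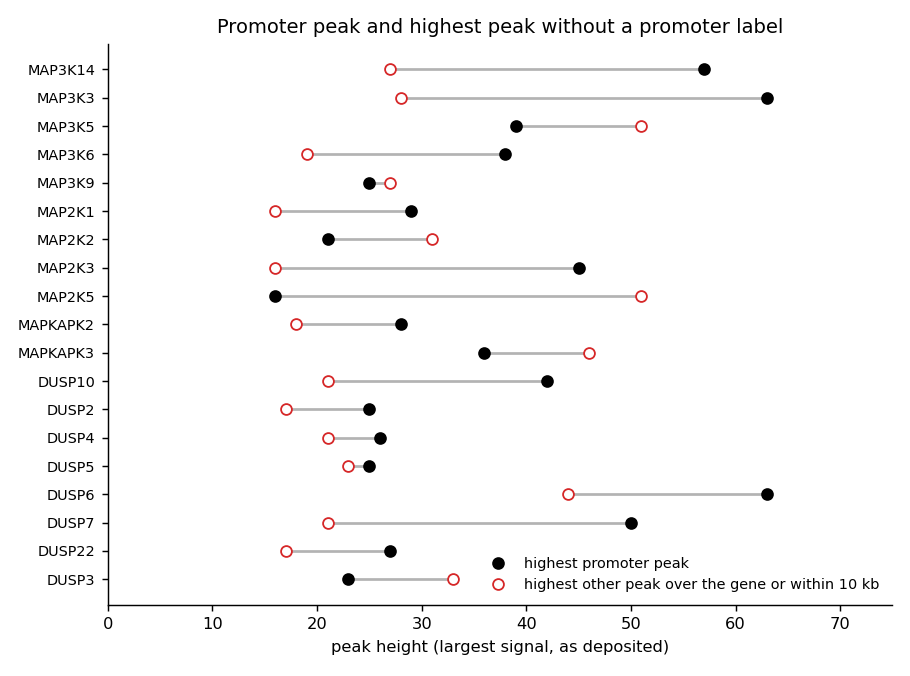
Height (deposited signal) of the highest promoter peak (black) and of the highest peak without a promoter label over the gene or within 10 kb (open red) for the 19 labelled genes that had such a peak. In 6 genes the open circle lies to the right, by the most at MAP2K5 with 51 against 16.

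More than 1 promoter peak was found at 3 of the 34 genes, MAP3K11, MAP2K3 and MAP2K2, which is 8.82% (3.05 to 23.0%) against 8.55% of all labelled protein-coding genes. Among the 36 genes without a label, 26 were free of peaks over the gene and its 10 kb flanks. In 5 of the 36, namely MAP3K2, MAPK7, MAPKAPK5, DUSP1 and DUSP28, a start site nevertheless lay inside a peak. Neither count was made over all unlabelled protein-coding genes, so neither is read as particular to these genes. MAP3K2 (MEKK2) had an unlabelled peak of height 22 and 1411 bp with the apex 532 bp downstream of a start site. Chromosomes 1 and 17 held 6 member peaks each, 14.6% of the 41, against 10.5% and 7.04% of all promoter peaks.

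In the 200 bp to each side of the apex, the 41 peaks held a median of 66.8% GC, against 64.3% in the other promoter peaks, and an observed over expected CpG of 0.841 against 0.808. GGGCGG was found in 33 of 41 (80.5%, 66.0 to 89.8%), against 76.1% of the other promoter peaks. The nuclear receptor half-site AGGTCA was found in 5 of 41 (12.2%, 5.32 to 25.5%), against 16.6%, at MAP3K11, MAPKAPK3, DUSP2, DUSP11 and MAP3K14-AS1. A direct repeat of half-sites was found in 1 of 41 (2.44%), the MAP3K11 peak of height 27, against 1.22%. GGAAGT was found in 13 of 41 (31.7%, 19.6 to 47.0%), against 36.7%. Its longer form GAGGAAGT was found at MAPKAPK3 and DUSP5, 4.88% against 5.27%.

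CCGGAAGT was found in 0 of 41, with an upper limit of 8.57% (Wilson), against 8.82% of the other promoter peaks. AP-1 matches were found in 4 of 41 (9.76%, 3.86 to 22.5%), both MAP2K3 peaks, MAP3K8 and the MAP2K2 peak in intron 3, against 7.39%. CACGTG was in 5 of 41 (12.2%) against 12.6%, GCGCATGC in 3 of 41 (7.32%) against 6.17%, and TGACGTCA in 1 of 41 (2.44%) against 3.13%. With the exception of CCGGAAGT, the share in the other promoter peaks lay inside the interval of the share in the 41. With 10 motifs searched and 1 share at the edge of its interval, none is called particular to these promoters.

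Other genes of the pathway were taken from a list of 54, chosen with earlier results of these data known. Of these 54, 40 had a promoter peak, 74.1% (61.1 to 83.9%), against 30.0% of all protein-coding genes and 40.7% of those with a CpG-rich start. How many of the 54 have a CpG-rich start was not examined. Of the 40 genes, 14 reached the upper quartile of height with their highest promoter peak, 35% (22.1 to 50.5%), against 25.5% of all promoter peaks, which were counted singly and not by gene. The median height of the highest promoter peak of the 40 genes was 28.5, with a range of 17 to 70. Adaptors and the RAS cycle had 7 of 9 genes with a peak, among them SHC1 at 53 and RASA1, a GTPase-activating protein of RAS, at 40. Among the RAF kinases, ARAF had a peak of height 30 and BRAF had none. NRAS had no promoter peak, and at NF1, also a negative regulator of RAS, a peak with the label MIR4733 had its apex 43 bp from a start site.

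Kinases and adaptors related to the MAP3K and MAP4K tiers had 6 of 8 genes with a peak, with TAOK3 at 50 as the highest. No apex lay within 47973 bp of a GENCODE start site of TAB1, so the peak labelled TAB1 was at least that far from them. MINK1 and TAB3 had none. Inhibitors of the cascade had 4 of 6, with SPRY2 at 36 and SPRED2 at 37, and SPRY4 and SPRED1 had none.

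The group of NLK (a relative of the MAP kinases), target kinases, transcription factors and IER3 had 16 of 21 genes with a peak, 8 of them in the upper quartile. Its median was 33.5. Those in the upper quartile are given next. They were ETV5 at 68, RPS6KA1 at 66, RPS6KA5 at 56, IER3 at 48, EGR1 at 44, RPS6KA2 at 43, SRF at 42 and NLK at 35. RPS6KA1, RPS6KA2 and RPS6KA5 are kinases that ERK or p38 activate, SRF is the serum response factor, and EGR1, IER3 and ETV5 are known to be made in response to ERK signalling. RPS6KA3, RPS6KA4 and EGR3 had no promoter peak. ATF2 and IER2 had none of their own, but peaks of height 41 and 40 with the labels MIR933 and STX10 had their apexes 18 and 76 bp from their start sites. The other MAP kinase phosphatases had 5 of 6 genes with a peak, with PPM1B, a phosphatase of the PP2C family, at 70 and the other 4 between 20 and 23, and PTPRR had none.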

How the data were processed

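Cut&Run peaks of induced U937-PR9 cells were analysed. The authors used Trimmomatic for trimming, Bowtie2 for alignment to hg19 and SAMtools to remove duplicates, called peaks in SEACR (norm union threshold, paired control as background) and kept peaks reproducible at an IDR below 0.05. The deposited summit and SEACR score were taken to be the total signal of a peak and its largest signal, the latter called height. The names do not give these meanings. Both were read from the values, since in all 15412 peaks the total was below height times width. The deposited list also gives each width in bp. Normalization of the signal is not given in the sources used here, nor whether it is from 1 replicate or pooled reads. Gene symbols are the authors' promoter labels from the UCSC known genes. In 34 peaks, none of them a member, the interval of largest signal has no end and its start was used.

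Start sites came from GENCODE release 44 on GRCh37, on which all 23 chromosomes of the list were found and no peak ran past an end. The members, tiers, pathway list and motifs were chosen with earlier results of these data known. Genes were named in full when they had 1 of the 5 highest, 5 widest or 3 lowest peaks, at least 2 promoter peaks or another gene's start site nearest, or were MAP2Ks, ERK1 or typical phosphatases, and other members could be named. From the pathway list those in the upper quartile of height or without a label were named, and a few others were added after their values were seen. A few genes are not reported here by name. No p-value was computed. The summary steps were tested on simulated data. Python 3.11.15, numpy 2.4.6, pandas 2.3.3, scipy 1.17.1 and matplotlib 3.10.9 were used.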

Additional observations from a re-analysis of the deposited data

How the results depend on the processing

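No paired analysis was possible because each peak has 1 value that is tied to neither replicate, so neither replicate could be left out. The direction of the difference in height and width was kept under the alternatives tried, except for height without the MAP3K genes. There the difference in median height was 0, and within classes of width the average difference in height was -1.96. Over the alternatives the difference in median height ran from 0 to 3 and that in median width from 403.5 to 596.5 bp. Back-transformed means of log2 values differed by 3.51 in height and 373.7 bp in width. With total signal in place of height, members were higher by 0.55 on the log2 scale of the median, and 46.3% of them reached the upper quartile. A list cut at its median height of 25 lowered the share of the 70 genes with a promoter peak to 34.3%, by construction of the shorter list. Merging, the highest peak per gene and the choice of comparison peaks cannot change that share. With 100 bp windows GGGCGG fell to 63.4% of members, against 61.8% of the others, and neither TGACGTCA nor a direct repeat was found. At the peak midpoint GAGGAAGT, TGACGTCA and direct repeats were at 0 of 41, and GGGCGG was in 68.3% of members against 74.4% of the others. AGGTCA was in 9.76% of members against 9.29% with 100 bp windows, and in 19.5% against 16.4% at the midpoint. The direction of the difference for AGGTCA and GGGCGG thus depended on the window. Leaving out the MAP3K genes, the 3 highest peaks, or peaks near another coding gene's start, and the CpG classes were chosen after seeing the data. Unknown depth and the lack of replicate values limit every comparison of heights.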
